A study of Mus musculus with 9 samples.

Results

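The genes described here were the well-expressed protein-coding genes of RAW264.7 macrophages, compared between cells given siRNA against SFRP2 and cells given control siRNA. They were chosen by measured values: a gene was kept when GENCODE M21 lists it as protein-coding and its mean FPKM (read counts scaled to transcript length and library size) over the 6 libraries was at least 10. Of the 28137 genes of the deposited values, 3850 were kept and 12017 were tested. The mean over both groups chose them and the difference between groups did not, so levels are given as a description and differences are tested. The series holds 9 RNA-seq libraries, 3 each of NC siRNA, SFRP2 siRNA and RAB6A siRNA, and was made to ask how loss of SFRP2 bears on the state and energy metabolism of macrophages. RAW264.7 is a mouse monocyte-macrophage leukemia line, so that all groups share one transformed background. All cells received 60 nM siRNA by lipofection for 6 h, then complete medium for 12 h, then lipopolysaccharide (LPS) at 100 ng/ml for 24 h before RNA extraction. There was no untreated and no LPS-free group. The study's methods describe inflammatory polarization with IFN-γ beside LPS, which the labels do not name. They also give a lower siRNA concentration and a different time in fresh medium after transfection. The labels were followed here. The libraries held 34743304 to 47149258 reads in the 6 libraries compared, as recovered from the FPKM steps, and the selected genes took between 82.0% and 82.9% of the assigned reads of each library. The labels do not say whether replicates were separate cultures, so p-values measure the spread between these libraries, which may be technical. In bulk RNA, fewer cells in a state and less RNA per cell cannot be told apart.

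SFRP2 is a secreted protein of the frizzled-related family, which shares the Wnt-binding domain of Frizzled receptors and is made mainly by fibroblasts and other mesenchymal cells. LPS acts on macrophages through Toll-like receptor 4, which switches on cytokine, chemokine and interferon programs and shifts metabolism towards glycolysis. An siRNA is a short duplex whose antisense strand guides cleavage of a matching mRNA, and whose seed, bases 2 to 8 of that strand, can also pair with partly matching sites in other mRNAs. The antisense strands of the 3 siRNAs against SFRP2 and of the control are shown 5′ to 3′ because they are the agents that separate the groups, with the seed in capitals.
SiRNA-1 antisense: uUCAUGACcagcggaaucc
SiRNA-2 antisense: uUGUCGUCcucauucuugg
SiRNA-3 antisense: aUCUUGGUgucucuguuga
NC antisense: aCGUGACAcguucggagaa
The 3 sense strands matched the coding sequence of Sfrp2 (ENSMUST00000029625.7, plus strand, GRCm38) exactly, SiRNA-1 in exon 1 at chr3:83766777-83766795, SiRNA-2 in exon 2 at chr3:83769353-83769371 and SiRNA-3 in exon 3 at chr3:83773151-83773169. The NC strand had no match in this transcript. The libraries are numbered 1 to 3 as the siRNAs are, and the labels do not say whether each library received 1 of these siRNAs or a mix.

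The targeted gene could not check the labels. Sfrp2 (ENSMUSG00000027996) was at 0.0223, 0.0197 and 0.0219 FPKM in NC siRNA and 0.0458, 0.0478 and 0.0267 in SFRP2 siRNA, which comes to 2 recovered reads in each NC siRNA library and to 4, 4 and 2 in the SFRP2 siRNA libraries. The libraries were paired-end, so that 2 reads may be 1 fragment, and both groups were at or near the 3 counts that a count of 0 allows. No fold change can be given, and a decrease was not detectable at this depth. Intervals and floors of this kind cover counting error only. The 10 macrophage markers, among them Cd68 and Adgre1 (F4/80), were all in the selected set and summed to 4788 to 5262 FPKM in NC siRNA and 4233 to 4583 in SFRP2 siRNA. Markers of T cells, B cells, neutrophils, fibroblasts, endothelium and epithelium were all at or below 1.32 FPKM, the value of Col1a1 in SFRP2 siRNA 2. The fibroblast markers, of the cell type that usually makes SFRP2, summed to 1.30 to 2.58 FPKM in NC siRNA and 1.82 to 2.61 in SFRP2 siRNA. Rab6a, the target of the other siRNA, was at 24.3, 27.3 and 25.5 FPKM in NC siRNA and 26.6, 28.6 and 25.8 in SFRP2 siRNA, and at 21.2, 20.7 and 20.4 in the RAB6A siRNA libraries. The reference gene Actb was at 987, 946 and 996 FPKM in NC siRNA and 957, 880.1 and 889 in SFRP2 siRNA (log2 fold change -0.10 ± 0.06 SE, adjusted p = 0.354 by limma). Gapdh lay below the selection level, at 8.46, 8.54 and 14.9 FPKM in NC siRNA and 7.58, 7.72 and 9.99 in SFRP2 siRNA. Gapdh has many near-identical copies in the genome, so that its counting is uncertain, and NC siRNA 3 stood above the other libraries.

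No well-expressed gene separated the groups at an adjusted p under 0.05. Of the 3850 genes, 0 had an adjusted p under 0.05 by limma, and the same held for all genes tested (0%). The smallest adjusted p was 0.140. At an unadjusted p under 0.05 there were 1047 genes (27.2%), 348 higher and 699 lower in SFRP2 siRNA, where all genes tested gave 18.5%, 7.73% higher and 10.7% lower. With the replicate block the 1047 became 1481 (38.47%, against 24.86% of all genes tested), 602 higher and 879 lower. The count leaned on single libraries. It was 558 without NC siRNA 3 (14.49%, against 10.54% of all genes tested) and 560 without SFRP2 siRNA 2 (14.55%, against 11.24%). With both of them left out it was 281 (7.30%, against 6.66%), near the share of all genes tested. Fewer libraries also make a small p harder to reach. The groups did not overlap in 1297 genes (33.69%), 458 higher and 839 lower in SFRP2 siRNA, against 24.7% of all genes tested. Without SFRP2 siRNA 3 this count was 1996 (51.84%, against 40.82% of all genes tested). Under voom, which weights log counts by their precision, the recovered reads gave 33 genes with an adjusted p under 0.05 among 3778 selected genes with whole reads, 30 lower and 3 higher, where all genes fitted gave 0.351%. Not one of the 33 had an absolute log2 fold change over 1.

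The data bound most changes closely. The median absolute log2 fold change was 0.10 and the median standard error 0.06. The 95% confidence interval of the log2 fold change lay within 0.25 of 0 in 1985 genes, within 0.5 in 3683 (95.7%) and within 1 in 3841. Absolute log2 fold changes over 0.25 were seen in 282 genes, over 0.5 in 9 and over 1 in 3. RAB6A siRNA was compared on the same scale, in the same genes and against the same NC siRNA libraries. It gave 3072 genes with an adjusted p under 0.05 by limma, where 74.1% of all genes tested for RAB6A siRNA passed. Of the 3072 genes, 867 also differed by more than 1 on the log2 scale, against 3829 of the 12712 genes tested for RAB6A siRNA. The plot of both distributions shows a narrow peak for SFRP2 siRNA, with 5% and 95% quantiles of -0.25 and 0.20, and a broad one for RAB6A siRNA, with quantiles of -1.69 and 1.00.

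**Figure D1:**
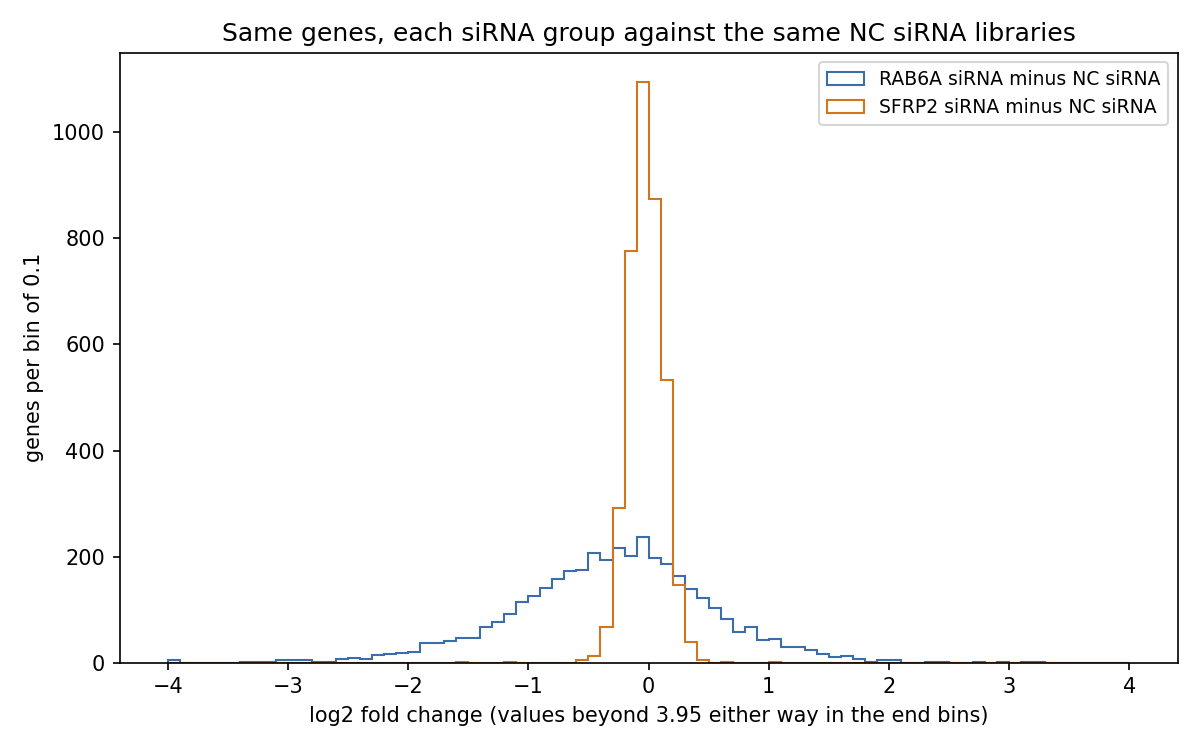
Number of genes (vertical axis) by log2 fold change in bins of 0.1 (horizontal axis) for the 3850 well-expressed genes, SFRP2 siRNA minus NC siRNA in orange and RAB6A siRNA minus NC siRNA in blue. The orange outline is narrow, with 9 genes beyond 0.5 in absolute value, while in the blue outline 867 genes called by limma lie beyond 1. Of all 12712 genes tested for RAB6A siRNA, 3829 were called and lay beyond 1.

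Lower values in SFRP2 siRNA grew with the level of the gene. Among the 1722 genes at 10 to 20 FPKM the median log2 fold change was -0.01, with 181 higher and 221 lower at an unadjusted p under 0.05. The 1329 genes at 20 to 50 FPKM had a median of -0.04, with 124 higher and 251 lower. For the 656 genes at 50 to 200 FPKM the median was -0.05, with 38 higher and 177 lower. The 143 genes at or above 200 FPKM had a median of -0.10, with 5 higher and 50 lower. Quantile normalization, which forces the same distribution of values on every library, removed this trend by its construction: its medians ran from -0.01 to -0.00066, and of the 1078 genes with an unadjusted p under 0.05, 547 were higher and 531 lower. Median-of-ratios scaling kept it, with medians from -0.0044 to -0.10 and 399 higher and 675 lower in all. After GC and length correction, described below, the medians ran from -0.0008 at 10 to 20 FPKM to -0.06 at or above 200 FPKM. Among the latter genes 4 were higher and 34 lower at an unadjusted p under 0.05. Lists of abundant genes are to be read beside this trend. FPKM are shares of a library total. The 12 selected genes of the mitochondrial genome took 19.3%, 22.4% and 19.7% of the summed FPKM in NC siRNA and 21.7%, 24.9% and 26.4% in SFRP2 siRNA, and their part in the lower values of other abundant genes was not tested. The plot of fold change against level shows this tilt.

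**Figure D2:**
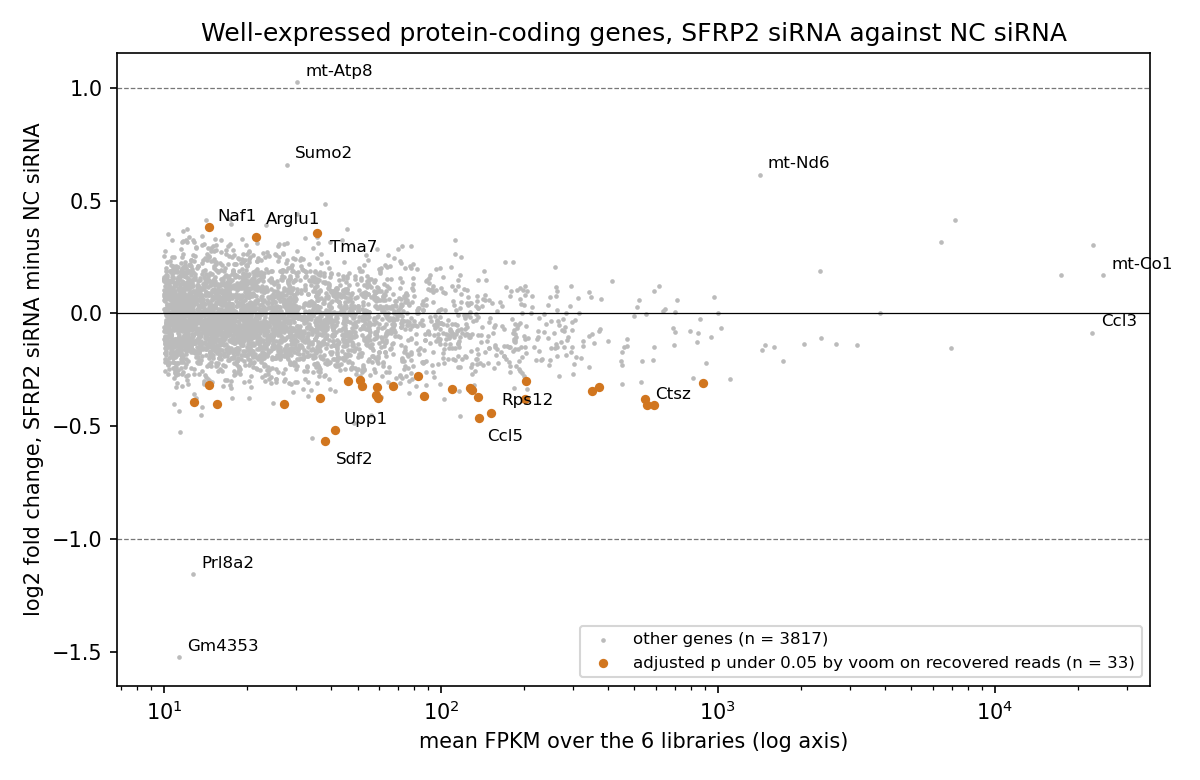
Log2 fold change, SFRP2 siRNA minus NC siRNA (vertical axis), against the mean FPKM over the 6 libraries (horizontal log axis) for the 3850 genes, with dashed lines at 1 and -1 and the 33 genes called by voom in orange. Most of the orange points lie below 0, 30 of 33, and 3 genes lie beyond the dashed lines.

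Fold changes also followed the base composition of the transcripts. Across genes, the log2 fold change had a Spearman correlation of -0.59 with the GC percent of the longest coding transcript (n = 3850 genes, which share the same 6 libraries and are not replicates). Of 5 equal groups of genes ordered by GC content, the lowest spanned 31.9% to 44.3%. There the median log2 fold change was 0.10 and 622 of 770 were higher in SFRP2 siRNA. In the highest, 55.5% to 69.7%, the median was -0.12 and 82 of 770 were higher. The libraries were not alike within a group. For the genes of highest GC content, the median difference from the NC siRNA mean on the log2 scale was 0.0025, -0.05 and 0.05 in NC siRNA 1, 2 and 3, and -0.07, -0.16 and -0.14 in SFRP2 siRNA 1, 2 and 3. NC siRNA 3 and SFRP2 siRNA 2 stood at opposite ends of the first principal component of the 3850 genes, which held 50.9% of the variance, and their own deviations correlated with GC percent by 0.65 and -0.63. The genes higher at an unadjusted p under 0.05 had a median GC content of 43.7% and a median exon length of 5854 bases, and the lower genes 54.2% and 2782 bases. In another fit each library was corrected for GC content and length, which evens out the medians of the 5 groups by construction (-0.02 to 0.0014). It also takes out any true difference between SFRP2 siRNA and NC siRNA that follows GC content or length. It left 753 genes with an unadjusted p under 0.05 (19.56%, against 13.73% of all genes tested), 294 higher and 459 lower. The median from that fit, called corrected, is given beside each gene group.

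**Figure D3:**
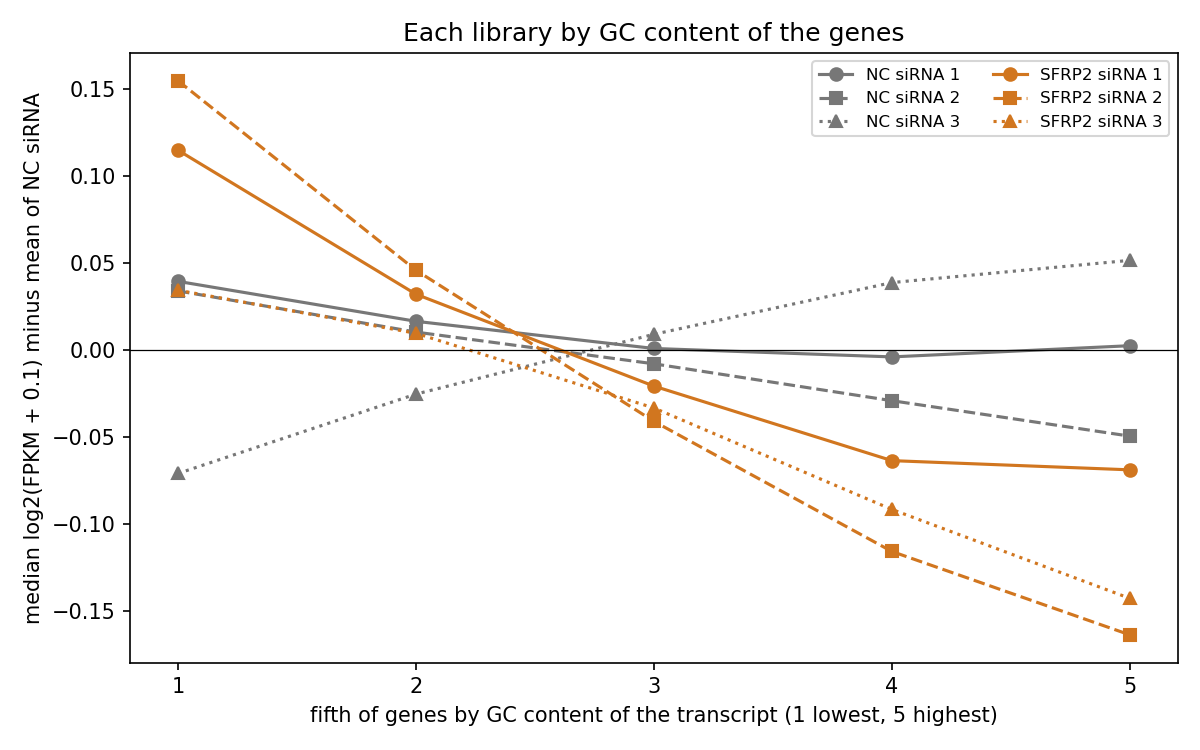
Median log2(FPKM + 0.1) minus the mean of the NC siRNA libraries (vertical axis) for 5 equal groups of genes ordered by GC content (horizontal axis), with 1 line per library, NC siRNA in grey and SFRP2 siRNA in orange. All 3 SFRP2 siRNA libraries slope down, SFRP2 siRNA 2 most steeply from 0.16 to -0.16, NC siRNA 2 slopes down less, NC siRNA 1 is nearly flat at high GC, and NC siRNA 3 slopes up from -0.07 to 0.05.

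Genes were first required to have groups that did not overlap, so non-overlap is no result for them. Of these, the 10 with the smallest p in each direction were taken singly. Of those toward lower values, Upp1 (ENSMUSG00000020407, chr11:9118103-9136170, GRCm38), which splits uridine to salvage its base, was at 45.8, 48.5 and 51.7 FPKM in NC siRNA and 36.7, 33.7 and 31.7 in SFRP2 siRNA. The groups did not overlap (log2 fold change -0.52 ± 0.07 SE, adjusted p = 0.14 by limma), and voom gave an adjusted p of 0.0116. Sdf2 (ENSMUSG00000002064, chr11:78245746-78255496), a chaperone cofactor of the endoplasmic reticulum, was at 50.4, 40.2 and 46.7 FPKM in NC siRNA and 31.5, 31.0 and 29.6 in SFRP2 siRNA (log2 fold change -0.57 ± 0.08 SE, adjusted p = 0.149 by limma; voom adjusted p = 0.0190). Ctsz (ENSMUSG00000016256, chr2:174427493-174439039), the lysosomal protease cathepsin Z, was at 626, 601 and 669 FPKM in NC siRNA and 489.9, 457 and 484 in SFRP2 siRNA (log2 fold change -0.41 ± 0.06 SE, adjusted p = 0.144 by limma; voom adjusted p = 0.0116). For Rps12 (ENSMUSG00000061983, chr10:23785183-23787275), a protein of the small ribosomal subunit, the values were 168, 173 and 181 FPKM in NC siRNA and 129.6, 119 and 136 in SFRP2 siRNA (log2 fold change -0.44 ± 0.06 SE, adjusted p = 0.14 by limma; voom adjusted p = 0.0116). In these 4 genes every SFRP2 siRNA library lay below every NC siRNA library, as the choice required. Tspo, the mitochondrial outer membrane translocator protein, was at 15.8, 14.9 and 16.2 FPKM in NC siRNA and 11.7, 11.9 and 11.5 in SFRP2 siRNA (log2 fold change -0.41 ± 0.05 SE, adjusted p = 0.14 by limma), but its voom adjusted p was 0.0613. Rnf19b, a ubiquitin ligase, was at 143, 139 and 146 FPKM in NC siRNA and 117, 113 and 111 in SFRP2 siRNA (log2 fold change -0.33 ± 0.04 SE, adjusted p = 0.14 by limma). Cope, the epsilon subunit of the COPI coat, was at 14.5, 14.3 and 14.9 FPKM in NC siRNA and 11.5, 11.2 and 10.5 in SFRP2 siRNA (log2 fold change -0.39 ± 0.05 SE, adjusted p = 0.14 by limma). Slc39a7, a zinc transporter of the endoplasmic reticulum, had a log2 fold change of -0.40 ± 0.06 SE, Hagh, a hydrolase of the glyoxalase system, one of -0.36 ± 0.06 and H2-T23, a nonclassical MHC class I gene, one of -0.30 ± 0.05. Their groups did not overlap either, by the same choice.

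Of those toward higher values, Naf1 (ENSMUSG00000014907, chr8:66860217-66890564), an assembly factor of H/ACA ribonucleoproteins, was at 12.7, 12.7 and 12.6 FPKM in NC siRNA and 15.6, 17.1 and 16.8 in SFRP2 siRNA (log2 fold change 0.38 ± 0.05 SE, adjusted p = 0.14 by limma; voom adjusted p = 0.0391). Tma7 (ENSMUSG00000091537, chr9:109074568-109082587), a small translation-associated protein, was at 30.1, 33.2 and 30.9 FPKM in NC siRNA and 41.4, 39.7 and 39.6 in SFRP2 siRNA (log2 fold change 0.36 ± 0.05 SE, adjusted p = 0.144 by limma; voom adjusted p = 0.043). Arglu1, a splicing and transcription cofactor, was at 18.5, 20.3 and 18.0 FPKM in NC siRNA and 23.6, 25.1 and 23.1 in SFRP2 siRNA (log2 fold change 0.34 ± 0.06 SE, adjusted p = 0.163 by limma; voom adjusted p = 0.043). These 3 were the only higher genes that voom called. Klf7, a Kruppel-like transcription factor, was at 12.6, 13.5 and 12.8 FPKM in NC siRNA and 15.4, 15.8 and 15.6 in SFRP2 siRNA (log2 fold change 0.26 ± 0.05 SE, adjusted p = 0.163 by limma). Pank3, a pantothenate kinase of coenzyme A synthesis, had a log2 fold change of 0.29 ± 0.05 SE, which became 0.13 after GC and length correction. The remaining 5, Ube2l3, Tlr3, Ndc1, Patl1 and Tmem97, had log2 fold changes from 0.20 to 0.35. None of the 20 genes passed an adjusted p under 0.05 by limma. The plot of the 20 genes by library shows each library.

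**Figure D4:**
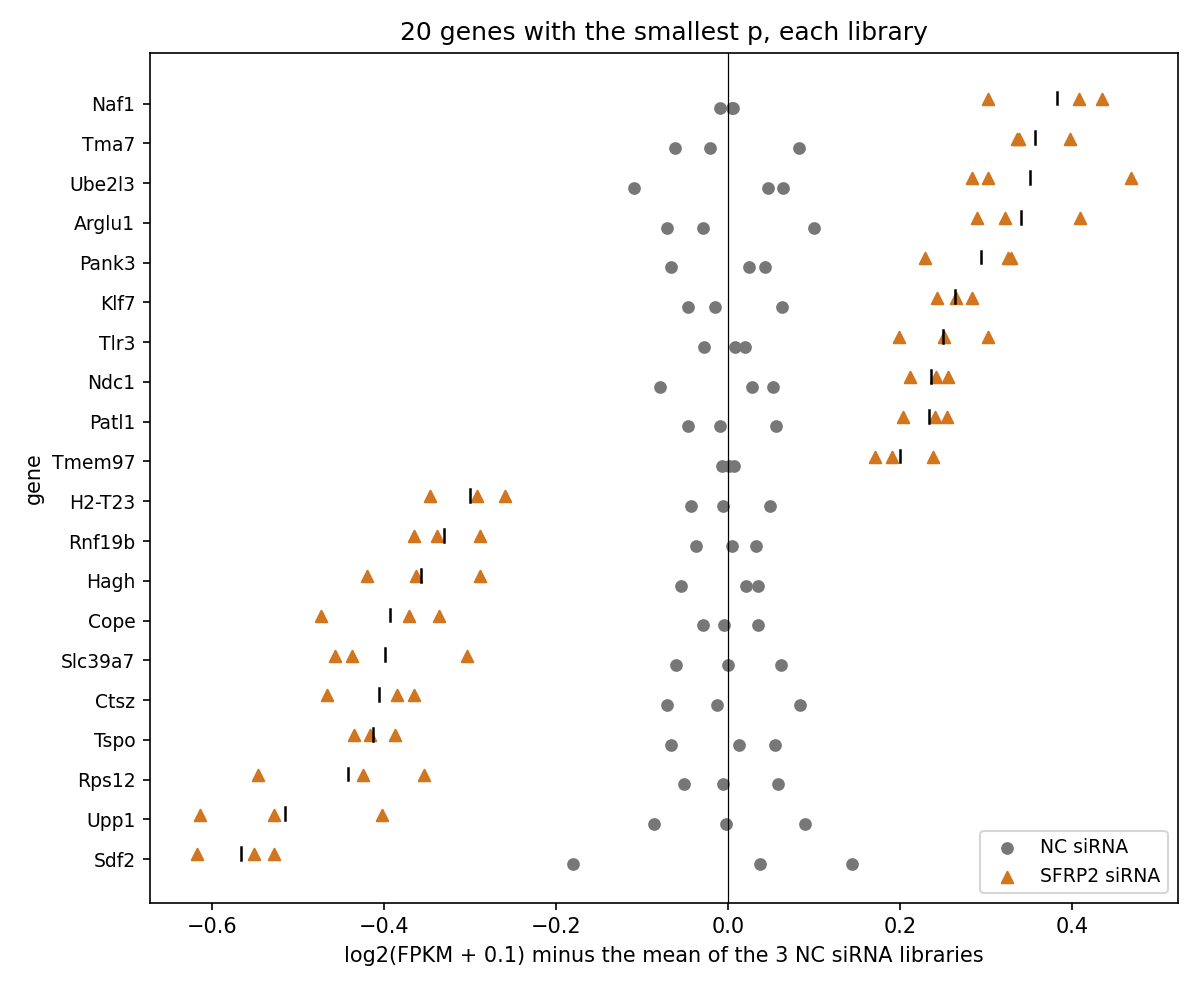
Log2(FPKM + 0.1) of each library minus the mean of the 3 NC siRNA libraries (horizontal axis) for the 10 genes with the smallest p in each direction (vertical axis), NC siRNA as grey circles, SFRP2 siRNA as orange triangles and black ticks at the SFRP2 siRNA mean. The genes were picked because their groups do not overlap, and the ticks run from -0.57 for Sdf2 to 0.38 for Naf1.

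The 33 genes that voom called covered several functions. Beside Rps12, Ctsz, Cope and H2-T23, the lists of gene groups held, among others, the cytosolic ribosomal proteins Rplp0, Rpl37 and Rpl8, the initiation factor subunit Eif3i, the LPS-induced chemokine Ccl5, the cytokine Mif, the costimulatory receptor Cd40, the interferon-stimulated genes Bst2 and Oas1a, the hexokinase Hk3, the cytochrome oxidase subunit Cox4i1, the proteasome subunit Psmd4 and the β2 integrin Itgb2, all lower. Ccl5 was at 142, 165 and 169.8 FPKM in NC siRNA and 124, 116 and 105 in SFRP2 siRNA (log2 fold change -0.46 ± 0.09 SE, adjusted p = 0.164 by limma). Mif, which acts as a cytokine and a tautomerase, was at 682, 613 and 710.1 FPKM in NC siRNA and 552, 490.5 and 472 in SFRP2 siRNA (log2 fold change -0.41 ± 0.08 SE, adjusted p = 0.165 by limma). Rplp0, of the ribosomal stalk, was at 647, 564 and 635 FPKM in NC siRNA and 515, 459.8 and 445 in SFRP2 siRNA (log2 fold change -0.38 ± 0.08 SE, adjusted p = 0.165 by limma). Over the 33 genes the absolute log2 fold change ran from 0.28 to 0.57. All 33 had groups that did not overlap, and all 33 kept an unadjusted p under 0.05 after GC and length correction. The 33 were chosen by their p in the same libraries, so neither count is separate support for them. Renbp, Pfdn5, Lsm4, Rack1, Tubb6, Thop1, Anxa5 and Bsg completed the lower genes outside the lists, beside those already given.

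Genes of the LPS response were mostly lower by small amounts. Of the 20 well-expressed LPS-induced cytokines and chemokines, 16 were lower and 4 higher, with a median log2 fold change of -0.14, where the median of all 3850 genes was -0.03, 1601 being higher, and that of all genes tested -0.01. At an unadjusted p under 0.05 there were 4 lower and 0 higher. Such counts, here and in the lists below, are to be read beside the share of all 3850 genes. That share was 27.2%, or 38.47% with the replicate block, against 18.5% and 24.86% of all genes tested. Several lists lay near it. Without NC siRNA 3 and SFRP2 siRNA 2 the median was -0.12, with 18 lower. It was closer to 0 in other settings, -0.06 without SFRP2 siRNA 3, -0.09 after GC and length correction and -0.07 with quantile normalization, where 14 were lower and 6 higher. Ccl3, a macrophage chemokine and the third most abundant gene of the set, was at 21914, 23029 and 24603 FPKM in NC siRNA and 21815, 20706 and 23029 in SFRP2 siRNA (log2 fold change -0.09 ± 0.10 SE, adjusted p = 0.657 by limma). Spp1, osteopontin, was at 6975, 7188 and 7815 FPKM in NC siRNA and 6376, 6608 and 6792 in SFRP2 siRNA (log2 fold change -0.15 ± 0.08 SE, adjusted p = 0.336 by limma), with no overlap of the groups. Tnf was at 1055, 998 and 1096 FPKM in NC siRNA and 1033, 977 and 1004 in SFRP2 siRNA (log2 fold change -0.06 ± 0.06 SE, adjusted p = 0.571 by limma), and the groups overlapped. Il6 was at 87.0, 106 and 94.3 FPKM in NC siRNA and 89.8, 91.2 and 81.0 in SFRP2 siRNA (log2 fold change -0.13 ± 0.08 SE, adjusted p = 0.42 by limma) and Il1b at 14.6, 14.7 and 15.7 FPKM in NC siRNA and 12.2, 14.3 and 14.0 in SFRP2 siRNA (log2 fold change -0.16 ± 0.07 SE, adjusted p = 0.299 by limma). Ccl7 was the highest of the list at 0.18 ± 0.19 SE and Ccl5 the lowest. The 95% interval of the log2 fold change was -0.20 to 0.07 for Tnf, -0.33 to 0.07 for Il6 and -0.28 to 0.04 for Nos2.

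Of the 23 LPS-response enzymes and feedback genes, 18 were lower and 5 higher (median -0.14, or -0.06 after GC and length correction and -0.09 without SFRP2 siRNA 3), with 5 lower and 1 higher at an unadjusted p under 0.05, and 8 lower with the replicate block. Nos2, the inducible nitric oxide synthase, was at 333, 319.7 and 368 FPKM in NC siRNA and 311, 297 and 329 in SFRP2 siRNA (log2 fold change -0.12 ± 0.07 SE, adjusted p = 0.372 by limma). Ptgs2, the inducible cyclooxygenase, was at 494, 468 and 513 FPKM in NC siRNA and 466, 450.3 and 419.9 in SFRP2 siRNA (log2 fold change -0.14 ± 0.06 SE, adjusted p = 0.27 by limma), and every SFRP2 siRNA library lay below every NC siRNA library. Acod1, which makes itaconate, was at 2422, 2422 and 2530.0 FPKM in NC siRNA and 2333, 2292 and 2211 in SFRP2 siRNA (log2 fold change -0.11 ± 0.06 SE, adjusted p = 0.346 by limma). Cd14, the LPS co-receptor, was at 1621, 1620.4 and 1795 FPKM in NC siRNA and 1611, 1443 and 1496 in SFRP2 siRNA (log2 fold change -0.15 ± 0.07 SE, adjusted p = 0.313 by limma). Cd40 was the lowest, at 68.0, 65.5 and 66.7 FPKM in NC siRNA and 52.8, 55.5 and 46.6 in SFRP2 siRNA (log2 fold change -0.37 ± 0.07 SE, adjusted p = 0.163 by limma; voom adjusted p = 0.0412), and the NF-κB subunit Rel the highest at 0.16 ± 0.04 SE. The 23 genes of Toll-like receptor signalling split into 12 higher and 11 lower, with a median of 0.02, and 0.02 after GC and length correction. There 3 were higher and 1 lower at an unadjusted p under 0.05, or 8 and 4 with the replicate block. The LPS receptor homolog Cd180 was at 136, 138 and 131 FPKM in NC siRNA and 131, 139 and 143 in SFRP2 siRNA and the p38 substrate Mapkapk2 at 113, 109 and 115 FPKM in NC siRNA and 117, 111 and 113 in SFRP2 siRNA, with log2 fold changes of 0.03 ± 0.05 and 0.02 ± 0.04 SE. Tlr3, a receptor for double-stranded RNA, was at 9.77, 9.84 and 9.53 FPKM in NC siRNA and 11.2, 12.0 and 11.6 in SFRP2 siRNA (log2 fold change 0.25 ± 0.05 SE, adjusted p = 0.165 by limma), and its log2 fold change was 0.10 after GC and length correction. Unc93b1, which escorts nucleic acid-sensing receptors, was lowest at -0.22 ± 0.06 SE.

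Genes that mark the macrophage were lower more often than not, as were the 3850 genes as a whole (2249 lower). Of 28 macrophage identity genes, 20 were lower and 8 higher (median -0.10, and -0.08 after GC and length correction), with 10 lower and 2 higher at an unadjusted p under 0.05, or 11 and 5 with the replicate block. Of all 3850 genes, 699 were lower and 348 higher at that p without the block. With quantile normalization 16 of the 28 were lower and 12 higher, with a median of -0.06. Without NC siRNA 3 and SFRP2 siRNA 2 the median was -0.06, with 21 lower, and without NC siRNA 3 alone it was -0.06. Cd68, a lysosomal glycoprotein, was at 1819, 1759 and 1972 FPKM in NC siRNA and 1606, 1544 and 1637 in SFRP2 siRNA (log2 fold change -0.21 ± 0.06 SE, adjusted p = 0.196 by limma). Adgre1 was at 55.2, 55.6 and 58.2 FPKM in NC siRNA and 48.6, 47.9 and 47.6 in SFRP2 siRNA (log2 fold change -0.23 ± 0.04 SE, adjusted p = 0.163 by limma). Both had groups that did not overlap. Lyz2, lysozyme, was at 869, 850.1 and 898 FPKM in NC siRNA and 822, 745 and 908 in SFRP2 siRNA and Csf1r, the receptor for macrophage colony-stimulating factor, at 79.3, 63.9 and 77.6 FPKM in NC siRNA and 70.3, 63.4 and 71.4 in SFRP2 siRNA, with groups that overlapped (-0.08 ± 0.08 and -0.10 ± 0.09 SE). Spi1, the myeloid transcription factor PU.1, was at 126, 124 and 141 FPKM in NC siRNA and 119.9, 109 and 114 in SFRP2 siRNA (-0.19 ± 0.06 SE, and -0.04 after GC and length correction). Fcgr1, an Fc receptor, had a log2 fold change of -0.23 ± 0.05 SE and the adaptor Tyrobp one of -0.19 ± 0.06. Itgam (CD11b) had 0.14 ± 0.07 SE and Ptprc (CD45) 0.04 ± 0.05, both toward higher values, and Ptprc -0.09 after GC and length correction. The inhibitory receptor Lilrb4a was highest at 0.25 ± 0.10 SE and the actin-binding protein Coro1a lowest at -0.28 ± 0.08.

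Of 51 interferon-stimulated genes, 33 were lower and 18 higher, where 2249 of the 3850 genes were lower (median -0.07, and -0.06 after correction), with 14 lower and 1 higher at an unadjusted p under 0.05, or 20 and 4 with the replicate block. Without NC siRNA 3 and SFRP2 siRNA 2 their median was -0.10, with 41 lower, and without SFRP2 siRNA 3 it was -0.04. By library, their median difference from the NC siRNA mean was -0.05, -0.01 and -0.14 on the log2 scale in SFRP2 siRNA 1, 2 and 3, so that library 2 was near the NC siRNA values (0.02, -0.0027 and -0.02). Bst2 (tetherin) was at 224, 218 and 243 FPKM in NC siRNA and 189, 172 and 165 in SFRP2 siRNA (log2 fold change -0.38 ± 0.07 SE, adjusted p = 0.163 by limma; voom adjusted p = 0.0391). Slfn2 was at 400.4, 384 and 366 FPKM in NC siRNA and 374, 394 and 331 in SFRP2 siRNA and Lgals3bp at 289, 292 and 317 FPKM in NC siRNA and 274, 273 and 288 in SFRP2 siRNA, with log2 fold changes of -0.07 ± 0.07 and -0.11 ± 0.05 SE. The kinase Eif2ak2 was highest at 0.17 ± 0.08 SE. Ifi27l2a, an interferon-inducible gene among the largest differences, was at 35.9, 41.0 and 45.1 FPKM in NC siRNA and 31.1, 27.8 and 24.2 in SFRP2 siRNA (log2 fold change -0.55 ± 0.11 SE, adjusted p = 0.165 by limma). Of 19 MHC class I presentation genes, 13 were lower and 6 higher (median -0.17, and -0.09 after GC and length correction), with 9 lower and 0 higher at an unadjusted p under 0.05, or 9 and 2 with the replicate block. The light chain B2m was at 3466, 4044 and 4012 FPKM in NC siRNA and 3732, 3762 and 4015 in SFRP2 siRNA (0.0011 ± 0.08 SE) and the chaperone Calr at 693, 715 and 696 FPKM in NC siRNA and 717, 715 and 679.5 in SFRP2 siRNA (0.0046 ± 0.05 SE), and in both the groups overlapped. H2-T23 was at 50.6, 49.3 and 52.6 FPKM in NC siRNA and 42.4, 41.5 and 39.9 in SFRP2 siRNA (log2 fold change -0.30 ± 0.05 SE, adjusted p = 0.163 by limma), and the trimming peptidase Erap1 was highest at 0.15 ± 0.07 SE.

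Glycolysis genes were nearly all lower. Of the 19 well-expressed genes, 18 were lower and 1 higher in SFRP2 siRNA. The list had a median of -0.21 on the log2 scale, as had complex IV (-0.21), and 14 were lower at an unadjusted p under 0.05. The median difference from the NC siRNA mean was 0.03, -0.07 and 0.05 in NC siRNA 1, 2 and 3 and -0.10, -0.24 and -0.23 in SFRP2 siRNA 1, 2 and 3. All SFRP2 siRNA libraries lay below all NC siRNA libraries, SFRP2 siRNA 1 only just. After GC and length correction the median was -0.12, and that of complex IV -0.20, with 18 glycolysis genes lower and 8 lower at an unadjusted p under 0.05. It was -0.14 without NC siRNA 3 and SFRP2 siRNA 2, again with 18 lower. Over all settings tried the median lay between -0.26 and -0.12. Pkm, the pyruvate kinase, was at 1000.4, 906 and 1022 FPKM in NC siRNA and 879, 784 and 852 in SFRP2 siRNA (log2 fold change -0.22 ± 0.07 SE, adjusted p = 0.202 by limma). Pgk1, phosphoglycerate kinase, was at 482, 474 and 502 FPKM in NC siRNA and 437, 408 and 399 in SFRP2 siRNA (log2 fold change -0.23 ± 0.05 SE, adjusted p = 0.178 by limma). Hk3, a hexokinase of myeloid cells, was at 58.6, 54.6 and 59.3 FPKM in NC siRNA and 49.1, 44.8 and 44.3 in SFRP2 siRNA (log2 fold change -0.32 ± 0.06 SE, adjusted p = 0.163 by limma; voom adjusted p = 0.043). The sugar transporter Slc2a6 was lowest, at 23.7, 20.8 and 23.9 FPKM in NC siRNA and 20.4, 16.8 and 15.8 in SFRP2 siRNA (log2 fold change -0.37 ± 0.10 SE, adjusted p = 0.182 by limma). Slc16a1, which moves lactate and pyruvate across the membrane, was the gene toward higher values, at 43.5, 43.6 and 40.3 FPKM in NC siRNA and 44.3, 44.0 and 45.4 in SFRP2 siRNA (0.07 ± 0.05 SE). Gapdh, itself an enzyme of this pathway, was not counted because of its level.

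In the pentose phosphate pathway 5 of 8 genes were lower and 3 higher (median -0.08, and -0.04 after correction), 3 of them lower at an unadjusted p under 0.05. Its first enzyme G6pdx had a log2 fold change of -0.04 ± 0.06 SE, and Pgd, the later dehydrogenase, was at 57.3, 54.2 and 56.2 FPKM in NC siRNA and 54.0, 50.1 and 49.98 in SFRP2 siRNA (-0.12 ± 0.05 SE). Pgls was lowest at -0.27 ± 0.08 SE and Rpe highest at 0.19 ± 0.09. Of 30 genes of the citrate cycle and pyruvate oxidation, 24 were lower and 6 higher (median -0.12, and -0.06 after GC and length correction), with 14 lower and 0 higher at an unadjusted p under 0.05, or 15 and 1 with the replicate block. The malate dehydrogenase Mdh2 was at 87.6, 83.8 and 90.9 FPKM in NC siRNA and 85.5, 73.9 and 75.4 in SFRP2 siRNA (log2 fold change -0.16 ± 0.07 SE, adjusted p = 0.264 by limma). The isocitrate dehydrogenase Idh2 was lowest, at 25.1, 26.3 and 26.6 FPKM in NC siRNA and 22.4, 20.7 and 22.3 in SFRP2 siRNA (log2 fold change -0.25 ± 0.05 SE, adjusted p = 0.165 by limma). Dld, a subunit shared by several dehydrogenase complexes, was highest, at 57.7, 59.8 and 51.3 FPKM in NC siRNA and 60.0, 64.7 and 55.6 in SFRP2 siRNA (0.10 ± 0.08 SE).

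The nuclear genes of the respiratory chain were mostly lower, complex by complex. Complex I had 24 of 27 lower (median -0.17), with 13 lower and 1 higher at an unadjusted p under 0.05. Its Ndufb10 was at 79.2, 84.7 and 94.6 FPKM in NC siRNA and 72.6, 61.9 and 68.1 in SFRP2 siRNA (log2 fold change -0.35 ± 0.08 SE, adjusted p = 0.178 by limma) and Ndufb3 at 78.9, 79.7 and 79.5 FPKM in NC siRNA and 71.2, 60.6 and 63.9 in SFRP2 siRNA (log2 fold change -0.29 ± 0.06 SE, adjusted p = 0.169 by limma). Ndufc2 was highest, at 35.0, 35.5 and 32.9 FPKM in NC siRNA and 38.9, 41.1 and 36.3 in SFRP2 siRNA (log2 fold change 0.17 ± 0.06 SE, adjusted p = 0.218 by limma), with all 3 SFRP2 siRNA libraries above NC siRNA. Complexes II and III, listed together with cytochrome c, had 12 of 14 lower (median -0.17), 8 of them at an unadjusted p under 0.05. There Uqcr11 was lowest, at 71.0, 65.6 and 67.7 FPKM in NC siRNA and 65.5, 48.1 and 46.4 in SFRP2 siRNA (log2 fold change -0.37 ± 0.13 SE, adjusted p = 0.211 by limma), Uqcr10 was at -0.32 ± 0.09 SE, Uqcrb at 0.06 ± 0.05 and cytochrome c, Cycs, highest at 0.18 ± 0.15. Complex IV had 11 of 12 lower (median -0.21), 7 of them at an unadjusted p under 0.05. Cox8a was at 434, 361 and 420.1 FPKM in NC siRNA and 361, 313 and 293 in SFRP2 siRNA (log2 fold change -0.33 ± 0.10 SE, adjusted p = 0.193 by limma) and Cox6a1 at 214, 185 and 213 FPKM in NC siRNA and 182, 155 and 151 in SFRP2 siRNA (log2 fold change -0.33 ± 0.09 SE, adjusted p = 0.18 by limma). Cox6c was the one gene toward higher values, at 0.13 ± 0.06 SE. After GC and length correction the medians were -0.13 for complex I, -0.12 for complexes II and III and -0.20 for complex IV, with 22 of 27, 13 of 14 and 11 of 12 lower. The median difference of complex IV from the NC siRNA mean was -0.10, -0.22 and -0.23 in SFRP2 siRNA 1, 2 and 3 and -0.02, -0.01 and 0.03 in NC siRNA 1, 2 and 3. Its median was -0.19 without NC siRNA 3 and SFRP2 siRNA 2, with 11 lower. Without SFRP2 siRNA 3 it was -0.16, with 9 lower and 3 higher. With quantile normalization it was -0.17, with 8 lower and 4 higher. Beside these values, RAB6A siRNA against the same NC siRNA libraries had all 12 complex IV genes higher, with a median of 0.61. Of the ATP synthase genes, 8 of 13 were lower and 5 higher (median -0.03), and the median was 0.02 after GC and length correction and 0.0046 with quantile normalization. At an unadjusted p under 0.05 there were 3 lower, or 5 lower and 1 higher with the replicate block. All 3850 genes gave shares of 27.2% and 38.47% at that p. Atp5a1 was at 275, 267 and 275 FPKM in NC siRNA and 254, 244 and 237 in SFRP2 siRNA (log2 fold change -0.15 ± 0.05 SE, adjusted p = 0.193 by limma) and Atp5b at -0.17 ± 0.05 SE, with Atp5d lowest at -0.31 ± 0.09 and Atp5f1 highest at 0.12 ± 0.07.

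Of 12 genes for proteins that mitochondria encode themselves, 9 were higher and 3 lower (median 0.18), with 4 higher and 0 lower at an unadjusted p under 0.05. The median of the 12 genes was 0.28 without SFRP2 siRNA 1 and 0.28 without NC siRNA 2, but 0.12 without SFRP2 siRNA 3 and 0.15 without NC siRNA 1. Their median GC content was 37.4%, the lowest of the lists, and after GC and length correction the median was 0.03, with 7 higher, 5 lower and 0 at an unadjusted p under 0.05. The median difference from the NC siRNA mean was -0.10, 0.17 and -0.05 in NC siRNA and 0.03, 0.36 and 0.39 in SFRP2 siRNA, so that the groups overlapped, NC siRNA 2 lying above SFRP2 siRNA 1. The cytochrome oxidase subunit mt-Co1, the most abundant gene of the set, was at 22629.9, 24782 and 22231 FPKM in NC siRNA and 24284, 26752 and 27406 in SFRP2 siRNA (log2 fold change 0.17 ± 0.10 SE, adjusted p = 0.394 by limma). Next came mt-Nd1, a subunit of complex I, at 18581, 22539 and 19507 FPKM in NC siRNA and 21872, 24966 and 28119.6 in SFRP2 siRNA (log2 fold change 0.30 ± 0.13 SE, adjusted p = 0.279 by limma). For mt-Nd2 the values were 5754, 7165 and 5552 FPKM in NC siRNA and 7019, 8792 and 8756 in SFRP2 siRNA (log2 fold change 0.41 ± 0.14 SE, adjusted p = 0.205 by limma), and for mt-Cytb, cytochrome b, the log2 fold change was 0.17 ± 0.16 SE. The largest values belonged to genes whose reads are shared. mt-Atp8 overlaps mt-Atp6 and was at 22.1, 21.3 and 13.5 FPKM in NC siRNA and 67.6, 29.5 and 27.2 in SFRP2 siRNA (log2 fold change 1.03 ± 0.36 SE, adjusted p = 0.214 by limma), SFRP2 siRNA 1 far above the rest. mt-Nd6 lies antisense to other mitochondrial transcripts and, with the strand of counting not stated, cannot be told from them. It was at 1049, 1452 and 879 FPKM in NC siRNA and 1551, 2051 and 1512 in SFRP2 siRNA (log2 fold change 0.61 ± 0.20 SE, adjusted p = 0.202 by limma). mt-Co3 was at 17.5, 17.8 and 37.3 FPKM in NC siRNA and 17.5, 17.9 and 22.3 in SFRP2 siRNA, with NC siRNA 3 alone high (-0.25 ± 0.28 SE, and 0.11 without NC siRNA 3). Its mean of 21.7 FPKM lay far below the 24681 FPKM of mt-Co1, and whether all its reads were counted was not tested. The nuclear-encoded mitochondrial ribosomal proteins had 29 of 41 lower (median -0.04), 5 of them at an unadjusted p under 0.05, or 8 lower and 1 higher with the replicate block. Their median turned to 0.02 after GC and length correction. Mrpl12 was at -0.11 ± 0.08 SE, Mrps21 at -0.15 ± 0.07, Mrpl20 lowest at -0.25 ± 0.07 and Mrpl50 highest at 0.15 ± 0.08.

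Cytosolic ribosomal proteins formed the largest list, and 61 of 71 were lower. The median log2 fold change was -0.15, and -0.09 after GC and length correction with 56 lower. At an unadjusted p under 0.05 there were 34 lower and 1 higher, or 33 and 2 with the replicate block. Without NC siRNA 3 and SFRP2 siRNA 2 the median was -0.11, with 62 lower. Many of these genes have processed pseudogenes, so that their single values are uncertain. Rpl41 was at 876, 878 and 928 FPKM in NC siRNA and 802, 678 and 723 in SFRP2 siRNA (log2 fold change -0.29 ± 0.07 SE, adjusted p = 0.178 by limma). Rps14 was lowest, at 61.3, 51.3 and 57.2 FPKM in NC siRNA and 48.5, 37.7 and 35.9 in SFRP2 siRNA (log2 fold change -0.48 ± 0.12 SE, adjusted p = 0.178 by limma). Rpl4 was at 716, 721 and 647 FPKM in NC siRNA and 747, 769 and 658 in SFRP2 siRNA (0.06 ± 0.08 SE), with overlap of the groups. Rps27 was highest and also among the least repeatable genes, at 36.7, 19.0 and 17.1 FPKM in NC siRNA and 58.5, 36.6 and 14.0 in SFRP2 siRNA (0.44 ± 0.52 SE, and -0.01 without SFRP2 siRNA 1). The median difference of the list was -0.06, -0.18 and -0.23 in SFRP2 siRNA 1, 2 and 3, against -0.02, 0.00069 and 0.02 in NC siRNA. With RAB6A siRNA, against the same NC siRNA libraries, 70 of the 71 were higher and the median was 1.09. Translation initiation and elongation factors had 34 of 56 lower and 22 higher (median -0.05). After GC and length correction the median was -0.01, with 30 lower and 26 higher, and with quantile normalization it was -0.0046. Without SFRP2 siRNA 3 it was -0.02. In the uncorrected fit 15 were lower and 5 higher at an unadjusted p under 0.05, or 16 and 13 with the replicate block. The elongation factor Eef2 was at 1185, 1162 and 1299 FPKM in NC siRNA and 1047, 972 and 963 in SFRP2 siRNA (log2 fold change -0.29 ± 0.07 SE, adjusted p = 0.177 by limma), and Eef1a1 at 2648, 2803 and 2922 FPKM in NC siRNA and 2497, 2492 and 2622 in SFRP2 siRNA (-0.14 ± 0.06 SE). Eif3i was lowest at -0.37 ± 0.07 SE and Mcts1, a reinitiation factor, highest at 0.41 ± 0.13.

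Lysosomal genes were mostly lower. Of 39 lysosomal hydrolases and membrane proteins, 31 were lower and 8 higher (median -0.11, and -0.06 after GC and length correction), with 15 lower and 2 higher at an unadjusted p under 0.05. Ctsz was both the lowest and the most abundant. Ctss, cathepsin S, was at 477, 503 and 484 FPKM in NC siRNA and 466, 455 and 431 in SFRP2 siRNA (log2 fold change -0.11 ± 0.05 SE, adjusted p = 0.288 by limma). Lipa, the acid lipase, was highest, at 14.4, 13.6 and 13.8 FPKM in NC siRNA and 15.1, 15.1 and 16.0 in SFRP2 siRNA (log2 fold change 0.15 ± 0.05 SE, adjusted p = 0.211 by limma). The V-ATPase, which acidifies the lysosome, had 14 of 15 subunits lower but by little (median -0.07, and -0.09 after GC and length correction), and 4 were lower at an unadjusted p under 0.05. Atp6ap1 was at 101, 103 and 102 FPKM in NC siRNA and 97.1, 95.8 and 98.3 in SFRP2 siRNA (-0.07 ± 0.04 SE). Atp6v1a was at -0.08 ± 0.06 SE, Atp6v1f lowest at -0.20 ± 0.08 and Atp6ap2 highest at 0.01 ± 0.06.

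Genes of protein turnover and folding differed by small amounts. Of 34 proteasome subunits, 28 were lower and 6 higher (median -0.10, and -0.05 after correction), with 10 lower and 0 higher at an unadjusted p under 0.05. Psmd8 was at 188, 192 and 199.9 FPKM in NC siRNA and 178, 175 and 178 in SFRP2 siRNA (-0.12 ± 0.04 SE) and Psmb6 lowest at -0.31 ± 0.06, while Psmc1, at 201, 184 and 161 FPKM in NC siRNA and 200.5, 220.3 and 167 in SFRP2 siRNA, was highest at 0.10 ± 0.12 with wide overlap. Of 27 cytosolic chaperones 18 were lower and 9 higher (median -0.04, 0.02 with quantile normalization and -0.02 after correction), with 2 in each direction at an unadjusted p under 0.05, or 4 higher and 3 lower with the replicate block. Hsp90ab1 was at 956, 1008 and 1046 FPKM in NC siRNA and 966, 999 and 1045 in SFRP2 siRNA and Hsp90aa1 at 358, 347 and 314 FPKM in NC siRNA and 357, 379 and 334 in SFRP2 siRNA, both overlapping (0.00058 ± 0.06 and 0.07 ± 0.07 SE). Cct5, of the TRiC chaperonin, was lowest at -0.22 ± 0.04 SE and Ptges3, the p23 co-chaperone, highest at 0.22 ± 0.09. Folding genes of the endoplasmic reticulum split evenly, 17 lower and 16 higher (median -0.0047, and 0.03 after GC and length correction), with 4 lower and 3 higher at an unadjusted p under 0.05, or 4 and 5 with the replicate block. Hsp90b1 was highest, at 153, 183 and 167 FPKM in NC siRNA and 182, 203 and 202 in SFRP2 siRNA (log2 fold change 0.23 ± 0.08 SE, adjusted p = 0.211 by limma), Pdia3 was at 0.10 ± 0.06 SE and Sdf2l1, a paralog of Sdf2, lowest at -0.18 ± 0.05. Of 35 COPI, COPII and Golgi genes 24 were lower and 11 higher (median -0.07, and -0.06 after correction). At an unadjusted p under 0.05, 7 were lower and 2 higher, or 11 and 3 with the replicate block. These counts lay near the shares of all 3850 genes, 27.2% and 38.47%. Arf1 was at -0.01 ± 0.06 SE, Tmed2 at -0.03 ± 0.08, Cope lowest and the COPII GTPase Sar1b highest at 0.25 ± 0.06.

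Mitosis genes were mostly higher. Of 34 mitosis genes, 28 were higher and 6 lower in SFRP2 siRNA (median 0.10). At an unadjusted p under 0.05, 9 were higher and 1 lower, or 15 and 1 with the replicate block. Among all 3850 genes, 348 were higher and 699 lower at that p, or 602 and 879 with the block. After GC and length correction the median was 0.11, with 29 higher. Without NC siRNA 3 and SFRP2 siRNA 2 it was 0.06, with 24 higher, and over all settings tried it lay between 0.06 and 0.12. The median difference from the NC siRNA mean was 0.11, 0.10 and 0.07 in SFRP2 siRNA 1, 2 and 3 and 0.03, 0.05 and -0.06 in NC siRNA 1, 2 and 3. Mki67, the proliferation antigen Ki-67, was at 64.9, 61.2 and 50.7 FPKM in NC siRNA and 67.8, 72.4 and 70.2 in SFRP2 siRNA (log2 fold change 0.26 ± 0.09 SE, adjusted p = 0.214 by limma), with NC siRNA 3 lowest. Kif20b, a mitotic kinesin, was highest, at 12.9, 12.7 and 10.7 FPKM in NC siRNA and 14.9, 17.0 and 14.2 in SFRP2 siRNA (log2 fold change 0.34 ± 0.10 SE, adjusted p = 0.182 by limma). Incenp, of the chromosomal passenger complex, was at 56.4, 62.9 and 62.1 FPKM in NC siRNA and 58.5, 65.2 and 65.5 in SFRP2 siRNA (0.06 ± 0.07 SE). Bub3, a spindle checkpoint protein, was lowest, at 18.9, 18.6 and 20.4 FPKM in NC siRNA and 18.1, 16.0 and 17.5 in SFRP2 siRNA (log2 fold change -0.17 ± 0.06 SE, adjusted p = 0.241 by limma). Prr11, a cell-cycle gene among the largest differences, was at 15.8, 15.4 and 13.3 FPKM in NC siRNA and 20.1, 22.3 and 17.4 in SFRP2 siRNA (log2 fold change 0.42 ± 0.11 SE, adjusted p = 0.178 by limma). DNA replication genes had 16 of 26 lower and 10 higher (median -0.05, and -0.01 after correction), 5 lower and 4 higher at an unadjusted p under 0.05. The sliding clamp Pcna was at 110.3, 105 and 108 FPKM in NC siRNA and 98.6, 100.2 and 96.1 in SFRP2 siRNA (log2 fold change -0.14 ± 0.04 SE, adjusted p = 0.197 by limma), and the ribonucleotide reductase subunit Rrm2 at 0.09 ± 0.08 SE. The polymerase subunit Pold2 was lowest at -0.23 ± 0.07 SE and cyclin E2, Ccne2, highest at 0.29 ± 0.09, or 0.07 after GC and length correction. Beside these values, RAB6A siRNA had 33 of the 34 mitosis genes and all 26 DNA replication genes lower, with medians of -1.32 and -1.21. The difference between the 2 lists was not tested.

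Splicing factors, hnRNP and SR proteins together, had 26 of 42 higher and 16 lower (median 0.04), with 7 higher and 4 lower at an unadjusted p under 0.05, or 12 and 5 with the replicate block, and a median of -0.0039 after GC and length correction. They split into 21 lower and 21 higher without NC siRNA 3 and SFRP2 siRNA 2. Hnrnpa2b1 was at 166, 172 and 158 FPKM in NC siRNA and 173, 185 and 179 in SFRP2 siRNA (0.12 ± 0.05 SE) and Hnrnpa1 at -0.03 ± 0.05. Srsf9 was lowest, at 52.0, 53.5 and 53.5 FPKM in NC siRNA and 43.2, 44.2 and 47.0 in SFRP2 siRNA (log2 fold change -0.24 ± 0.05 SE, adjusted p = 0.165 by limma), and Srsf11 highest at 0.31 ± 0.12 SE. Luc7l3, a splicing-related gene among the largest differences, was at 35.1, 33.9 and 26.3 FPKM in NC siRNA and 44.0, 54.2 and 36.1 in SFRP2 siRNA (log2 fold change 0.48 ± 0.17 SE, adjusted p = 0.211 by limma). Of 45 actin cytoskeleton genes, 26 were lower and 19 higher (median -0.05, 0.01 with quantile normalization and -0.01 after correction), with 16 lower and 3 higher at an unadjusted p under 0.05, or 16 and 7 with the replicate block. The light chain Myl6 was lowest, at 39.2, 34.4 and 37.7 FPKM in NC siRNA and 32.6, 27.8 and 26.2 in SFRP2 siRNA (log2 fold change -0.37 ± 0.09 SE, adjusted p = 0.178 by limma), and the GTPase Cdc42 highest at 0.26 ± 0.08 SE. Profilin, Pfn1, was at 457, 501 and 546 FPKM in NC siRNA and 460.3, 469.9 and 566 in SFRP2 siRNA (-0.01 ± 0.10 SE). Of 27 Nrf2 targets and redox enzymes, 19 were lower and 8 higher (median -0.08, and -0.05 after correction), with 7 lower and 1 higher at an unadjusted p under 0.05, or 9 and 2 with the replicate block. The ferritin heavy chain Fth1 was at 3111, 3399 and 3465 FPKM in NC siRNA and 3020.1, 2825 and 3224 in SFRP2 siRNA (-0.14 ± 0.08 SE) and the heme oxygenase Hmox1 at -0.07 ± 0.08 SE. The biliverdin reductase Blvrb was lowest at -0.32 ± 0.07 SE and the cystine transporter Slc7a11 highest at 0.24 ± 0.08. Of 20 cholesterol and lipid synthesis genes, 13 were lower and 7 higher (median -0.03, and 0.02 after GC and length correction), with 3 higher and 2 lower at an unadjusted p under 0.05. The desaturases Fads2 and Scd2 were at -0.06 ± 0.04 and 0.01 ± 0.07 SE, with Mvd lowest at -0.22 ± 0.08 and Idi1 highest at 0.24 ± 0.09.

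The pathway that SFRP2 is known to act on showed no common direction. Of 24 well-expressed genes of the Wnt and β-catenin pathway, 13 were lower and 11 higher (median -0.01, and 0.03 after GC and length correction). At an unadjusted p under 0.05, 5 were lower and 1 higher, or 7 and 4 with the replicate block. All 3850 genes gave shares of 27.2% and 38.47% at that p. The well-expressed genes were 24 of the 70 listed for this pathway. Ccnd1 (cyclin D1), a target of β-catenin in many tissues, was at 101, 105 and 102 FPKM in NC siRNA and 103, 104 and 105 in SFRP2 siRNA (log2 fold change 0.02 ± 0.04 SE, adjusted p = 0.857 by limma). Rac2, a GTPase of blood cells, was the most abundant of the list, at 218, 209.8 and 230.1 FPKM in NC siRNA and 194, 172 and 176 in SFRP2 siRNA (log2 fold change -0.28 ± 0.06 SE, adjusted p = 0.169 by limma). Aes, a corepressor of the Groucho family, was lowest, at 26.2, 28.1 and 30.1 FPKM in NC siRNA and 25.5, 21.5 and 21.4 in SFRP2 siRNA (log2 fold change -0.30 ± 0.08 SE, adjusted p = 0.182 by limma), and Skp1a, of SCF ubiquitin ligases, highest at 0.21 ± 0.11 SE. The 7 well-expressed genes listed as RNA interference machinery had 5 lower and 2 higher (median -0.05, and -0.03 after correction, or 0.0023 without SFRP2 siRNA 2). Of these, 0 had an unadjusted p under 0.05. Their range was from -0.11 ± 0.07 SE for Snd1 to 0.08 ± 0.05 for Xpo5, with the nuclease Drosha at -0.05 ± 0.07 and the transport GTPase Ran at -0.09 ± 0.06. The plot of the gene lists sets these medians side by side.

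**Figure D5:**
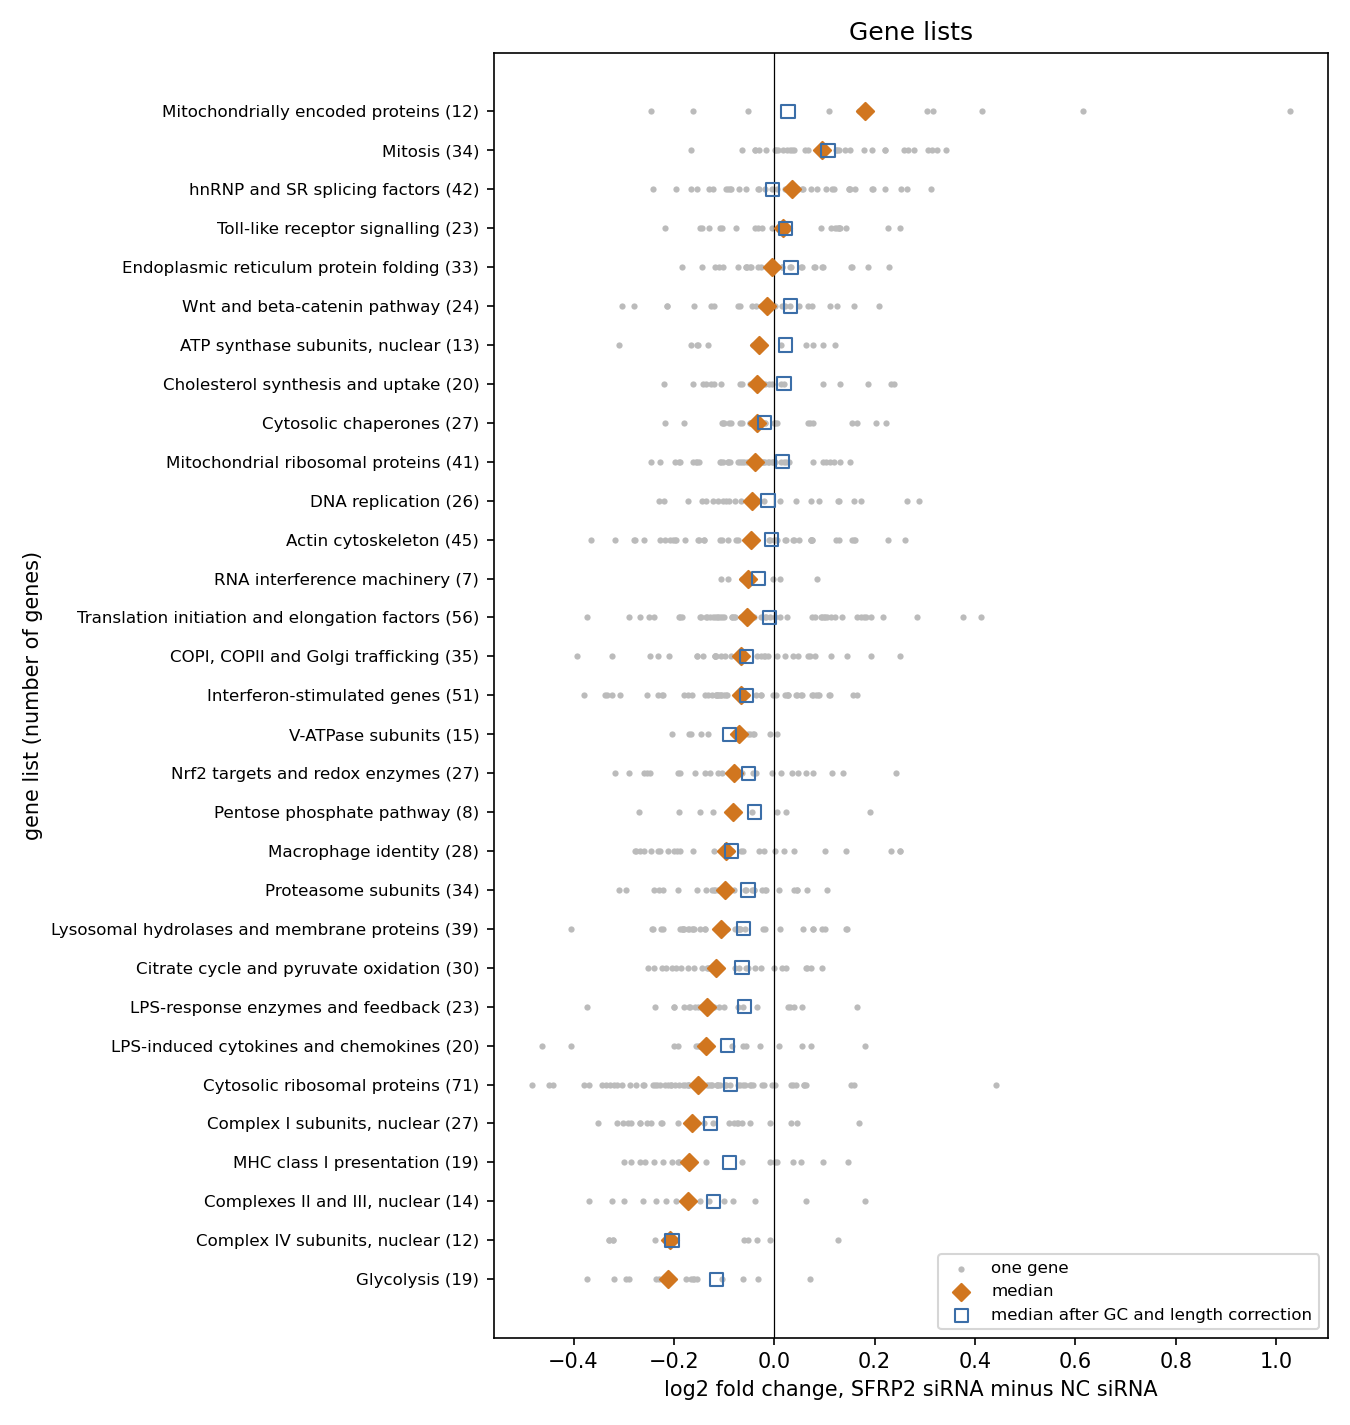
Log2 fold change, SFRP2 siRNA minus NC siRNA (horizontal axis), for the well-expressed genes of 31 lists (vertical axis, number of genes in brackets), with 1 grey point per gene, orange diamonds at the list median and open blue squares at the median after GC and length correction. Medians run from -0.21 for glycolysis to 0.18 for mitochondrially encoded proteins, where correction leaves -0.12 and 0.03.

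Genes differed widely in how well the libraries repeated. The median standard deviation of log2(FPKM + 0.1) within groups was 0.07, and 36 genes were above 0.25. The steadiest, chosen after their values were seen, included Sppl2a at 12.4, 12.6 and 12.5 FPKM in NC siRNA and 12.6, 12.6 and 12.6 in SFRP2 siRNA and the abundant prothymosin Ptma at 715, 723 and 719 FPKM in NC siRNA and 673, 685 and 678 in SFRP2 siRNA, with log2 fold changes of 0.02 ± 0.04 and -0.08 ± 0.04 SE. The least steady, picked in the same way, were Prl8a2 at 23.01, 10.8 and 11.9 FPKM in NC siRNA and 24.2, 3.89 and 2.73 in SFRP2 siRNA and Sumo2 at 36.1, 8.99 and 18.8 FPKM in NC siRNA and 11.8, 40.8 and 50.4 in SFRP2 siRNA. Gm4353, a predicted gene with the largest log2 fold change of all, was at 13.3, 15.9 and 16.1 FPKM in NC siRNA and 8.17, 13.2 and 1.24 in SFRP2 siRNA (log2 fold change -1.52 ± 0.76 SE, adjusted p = 0.325 by limma), and the log2 fold change was -0.53 without SFRP2 siRNA 3. Prl8a2 had a log2 fold change of -1.15 ± 0.77 SE and Sumo2 one of 0.66 ± 0.65, and the libraries of each group overlapped. The 3 genes beyond 1 in absolute value were therefore Gm4353, Prl8a2 and mt-Atp8, all with standard errors of 0.36 or more. Gm11127, a class I-like gene with close paralogs, was at 13.4, 13.7 and 13.1 FPKM in NC siRNA and 11.3, 9.74 and 7.24 in SFRP2 siRNA (log2 fold change -0.52 ± 0.15 SE, adjusted p = 0.182 by limma). Ppia and Tuba1a, which have near-identical copies, belonged to the 10 least steady genes as well.

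Matches to the siRNA seeds were counted among the genes. The DNA letters that pair with each seed were searched in the annotated sequence after the stop codon of the longest coding transcript, on the transcript strand, in 3827 of the 3850 genes and in 16636 protein-coding genes in all. GTCATGA, the match to SiRNA-1, was in 224 genes (5.85%, against 7.39% of all protein-coding genes), and their median log2 fold change was 0.03, against -0.04 in genes without it. GACGACA, for SiRNA-2, was in 58 genes (1.52%, against 1.84%), with medians of -0.03 and -0.03. ACCAAGA, for SiRNA-3, was in 384 genes (10.0%, against 11.8%), with medians of 0.0037 and -0.04. TGTCACG, for the NC strand, was in 93 genes (2.43%, against 2.83%), with medians of 0.02 and -0.03. Genes with a match had a longer sequence after the stop codon, 2438 against 913 bases in the median for SiRNA-1. After GC and length correction the SiRNA-1 medians were -0.02 with and -0.01 without a match, the SiRNA-2 medians 0.0051 and -0.01, and the SiRNA-3 medians -0.0089 and -0.01. By library, genes with the SiRNA-1 match differed from the NC siRNA mean by 0.03, 0.02 and 0.0090 in SFRP2 siRNA 1, 2 and 3, genes with the SiRNA-2 match by -0.0078, -0.03 and -0.04, and genes with the SiRNA-3 match by 0.01, 0.0041 and -0.0037. These medians are a description with no test, and a match is not a site.

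The level that chose the genes falls in a dense range. Just inside it were Chd1l at a mean of 10.002 FPKM and Pi4k2b at 10.004, and just outside Tmem69 at 9.999 and E2f8 at 9.995. Chd1l was at 9.48, 9.88 and 8.92 FPKM in NC siRNA and 10.3, 11.5 and 9.95 in SFRP2 siRNA and Pi4k2b at 10.6, 9.80 and 10.3 FPKM in NC siRNA and 9.88, 10.3 and 9.21 in SFRP2 siRNA. Tmem69 was at 10.4, 9.88 and 6.93 FPKM in NC siRNA and 12.2, 10.7 and 9.88 in SFRP2 siRNA and E2f8 at 9.41, 9.78 and 10.1 FPKM in NC siRNA and 9.66, 9.75 and 11.3 in SFRP2 siRNA. The 8167 genes tested outside the set had a median standard error of 0.11 and 592 lower and 581 higher at an unadjusted p under 0.05.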

How the data were processed

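RNA was sequenced from 9 libraries of RAW264.7 cells as paired-end mRNA libraries made from total RNA. The deposited values are FPKM per gene, which the authors made from their reads, and the submitters' processing notes name HISAT2, featureCounts and Subread. The genome build, annotation, versions and strand setting are not given in the sources used here. Groups came from the sample labels, and columns of per-sample values left unused numbered 0.

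Gene IDs were matched to GENCODE M21 (GRCm38), which named 27533 of 28137. For 27084 of these (98.4%), FPKM and exon length gave whole reads in every library (tolerance 0.03 reads), which set the depth of each library, 34743304 to 47149258 in the 6 libraries compared. The 3850 genes had a median of 4040 reads per library. Genes of mean FPKM of at least 0.5 went into limma (version 3.58.1, R 4.3.3) as log2(FPKM + 0.1) (eBayes with an intensity trend, two-sided, Benjamini-Hochberg over all genes tested), without the RAB6A siRNA libraries. Fold changes are on that scale, which understates those of low genes. An exact permutation test of 3 against 3 libraries cannot go below p = 0.1 and was not used. Other steps ran in Python 3.11.15 with numpy 2.4.6 and pandas 2.3.3, and the fits were tested on simulated data. GC and length correction fitted splines of 5 degrees of freedom to each library. The alternatives were other pseudocounts, filters and scalings, no trend, all 9 libraries, a replicate block, voom on recovered reads, the correction, and each library left out. All gene lists are counts with no test.

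Samples of the same number deviated together among the 3850 genes: the correlations of their deviations from the group means were 0.298, 0.363 and 0.447 for numbers 1, 2 and 3, although 0.0426, -0.0583 and 0.0539 over all genes tested. The labels do not say what a number shares.

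The genes and lists were chosen with earlier results of these data known. Named genes were the targets, the reference genes, macrophage markers and main LPS genes, the 10 genes with the smallest p and the 5 with the largest fold change in each direction among those whose groups do not overlap, the 5 most abundant, the 2 on each side of the selection level, and from each list the 2 most abundant, the highest and the lowest. Others are named as chosen after their values were seen or because voom called them.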

Additional observations from a re-analysis of the deposited data

How the results depend on the processing

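None of the 3850 genes passed an adjusted p under 0.05 in any limma fit to FPKM, and 1 gene outside them did without NC siRNA 1, while voom on recovered reads gave 33. At an unadjusted p under 0.05 the count of 1047 lay between 558 (without NC siRNA 3) and 1038 with 1 library left out. These were 14.49% and 26.96% of the genes, against 10.54% and 19.41% of all genes tested. The count was 281 (7.30%, against 6.66%) with NC siRNA 3 and SFRP2 siRNA 2 left out together, a choice made after seeing the data. It was 748 without an intensity trend (19.43%, against 16.35%), 867 with all 9 libraries (22.52%, against 16.32%) and 753 after GC and length correction (19.56%, against 13.73%). The count of genes whose groups do not overlap, 1297, lay between 1416 and 1996 with 1 library left out, where fewer samples make it easier to meet. These were 36.78% and 51.84% of the genes, against 29.82% and 40.82% of all genes tested. The replicate block gave 1481 genes (38.47%, against 24.86%), and 1037 (26.94%, against 17.31%) together with GC and length correction. It changed no call at an adjusted p under 0.05. For RAB6A siRNA the count of 3072 lay between 2893 and 3081 with 1 library left out. The same fits called 8833 and 9325 of all 12712 genes tested. The median of 21 of the 31 lists kept its sign under every alternative. Other filters, no trend, the replicate block and all 9 libraries leave a list median unchanged, so they cannot bear on this count.

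Of 154 named genes, the log2 fold change of 27 changed sign in at least 1 alternative, at 2 decimals. B2m, Calr and Hsp90ab1 rounded to 0 at 2 decimals and had no direction to compare: with 1 library left out they ran from -0.07 to 0.04, -0.01 to 0.03 and -0.03 to 0.03, and B2m was at -0.12 after GC and length correction. With quantile normalization the value turned to 0.03 for Acod1, Slfn2, Ctss and Eef1a1, 0.07 for Lyz2, 0.01 for G6pdx, Tmed2 and Actb, 0.06 for Arf1 and Hnrnpa1, 0.13 for Pfn1 and 0.10 for Fth1. After GC and length correction, with or without the replicate block, it turned to -0.02 for Cd180 and Dld, 0.02 for Lgals3bp and Hmox1, -0.10 for Atp6ap2, -0.01 for Slc16a1, 0.04 for G6pdx and Fads2, -0.04 for Uqcrb, 0.01 for Mrpl12 and Tnf, 0.08 for Arf1, 0.11 for Pfn1 and -0.09 for Ptprc. With 1 library left out it ran from -0.03 to 0.05 for Atp6ap2, -0.43 to 0.11 for mt-Co3, -0.01 to 1.01 for Rps27, -0.05 to 0.05 for Arf1, -0.09 to 0.03 for Tmed2, -0.04 to 0.06 for Scd2, -0.01 to 0.15 for Rrm2 and -0.10 to 0.05 for Pfn1. The cause was not tested.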
